A study of Mus musculus with 2 samples.

Results

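Haemoglobin transcripts were followed through single-nucleus RNA-seq of the mouse retina at postnatal day 21. The genes were Hba-a1 and Hba-a2, which encode the adult alpha chain, and Hbb-bs and Hbb-bt, which encode the adult beta chain. They were 4 of the 32227 genes counted and were chosen by name, with earlier results of these data in view. The nuclei that carry them were selected on their own counts, as those with 3 or more unique molecular identifiers (UMIs, each standing for 1 captured RNA molecule) of the 4 genes together. By that threshold 105 of 7357 nuclei in the Cre- library and 30 of 6766 nuclei in the Tet tcKO library carried haemoglobin.

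The study asked what loss of the TET enzymes, which oxidise methylated cytosine, does to the cell types of the retina. Tet tcKO animals had floxed Tet1, Tet2 and Tet3 and the Chx10-Cre-GFP transgene, which is active in retinal progenitor cells, so that vessels and blood cells lie outside the intended deletion. Cre+ breeders were crossed with each other to limit mosaic Cre activity. Cre- control animals carried no Cre transgene and are labelled WT, and both libraries are labelled with strain C57 BL/6J. Each genotype is 1 library made from pooled whole retinas of several animals, and the pool of a nucleus is not recorded, so that no test between genotypes was possible and all intervals below cover counting error within a library only.

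The Cre- library held 11510585 UMIs (median 1107 per nucleus) and the Tet tcKO library 16590747 (median 1836.5). Only 1 cell barcode occurred in both libraries, and no nucleus with 3 or more haemoglobin UMIs had its barcode in the other library. Counts of 3′ tags for the targeted genes were 578 and 1016 for Tet1, 1206 and 2312 for Tet2, and 2076 and 2883 for Tet3 in Cre- and Tet tcKO. A 3′ tag need not cover a floxed exon, so these counts do not check the deletion. The authors' annotation has no class for vessels or blood. It placed 5214 Cre- nuclei but only 6 Tet tcKO nuclei in rods, and 265 Cre- and 3225 Tet tcKO nuclei in cones, so that rods could not be compared between genotypes and rods and cones were also summed.

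Haemoglobin carries oxygen as a tetramer of 2 alpha and 2 beta chains around haem. It is made in huge amounts by erythroid precursors, and in mammals the circulating red cell has no nucleus but keeps some of these messages while it is young. The retina is fed by its own vessels, whose endothelial cells form a tight barrier and lie against pericytes. Haemoglobin messages have also been described at low levels in some neurons and other cells outside blood. The counts here cannot tell apart RNA made in a nucleus, RNA attached to it and RNA captured from the fluid. The deposited counts had already passed a step that removes part of the free RNA.

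The alpha genes lie on chromosome 11 and the beta genes on chromosome 7 of GRCm39. In the GENCODE annotation Hba-a1 (ENSMUSG00000069919) spans chr11:32233186-32234504 and Hba-a2 (ENSMUSG00000069917) chr11:32246168-32247320, both on the plus strand. Hbb-bs (ENSMUSG00000052305) spans chr7:103475730-103482989 and Hbb-bt (ENSMUSG00000073940) chr7:103461727-103465047, both on the minus strand. The genes within a pair are near-copies. Their coding sequences differ at 1 base of 429 in the alpha pair (C381T, from Hba-a1 to Hba-a2) and at 1 base of 444 in the beta pair (C417T, from Hbb-bs to Hbb-bt), counted from 1 at the start codon. The coding stretches around these bases are shown because they are all that separates the genes of a pair in their coding part. Each lies in exon 3 of 3, is read 5′ to 3′ on the strand of the gene from the GENCODE transcript, and has the differing base as a capital.
Hba-a1 (chr11:32234313-32234363, plus strand): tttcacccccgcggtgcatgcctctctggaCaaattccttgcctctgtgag
Hba-a2 (chr11:32247130-32247180, plus strand): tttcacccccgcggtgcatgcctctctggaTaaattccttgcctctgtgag
Hbb-bs (chr7:103475879-103475929, minus strand): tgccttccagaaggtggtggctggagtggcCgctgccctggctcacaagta
Hbb-bt (chr7:103461870-103461920, minus strand): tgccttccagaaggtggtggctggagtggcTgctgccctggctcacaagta

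Both changes are silent: the encoded chains, 142 residues for alpha and 147 for beta, were identical within each pair. An alpha chain and a beta chain shared 62 of 149 aligned residues. In the 3′ UTR, where the tags of this kit mostly fall, all 90 bases of Hba-a2 were found unchanged in the 113 bases of Hba-a1, whereas Hbb-bs and Hbb-bt differed in 40 of 135 aligned positions. The split of reads between Hba-a1 and Hba-a2 is therefore uncertain and that between Hbb-bs and Hbb-bt less so. The sums of the pairs do not depend on the split, apart from reads that were dropped for matching both copies.

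Over all nuclei, haemoglobin stood at 108 counts per 1000000 UMIs (CPM) in the Cre- library (95% interval 102 to 114; 1242 UMIs) and at 124 CPM in the Tet tcKO library (119 to 130; 2061 UMIs). The log2 ratio of Tet tcKO over Cre- was 0.20 (0.10 to 0.31). This order rests on 1 Tet tcKO nucleus, which held 1154 of the 2061 UMIs. With the highest nucleus of each library left out the log2 ratio was -0.96 (-1.08 to -0.83), so that Cre- was the higher library.

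The beta genes led in both libraries. Hbb-bs, the more abundant beta gene, had 713 UMIs in 400 Cre- nuclei (61.9 CPM, 57.5 to 66.7) and 1230 UMIs in 428 Tet tcKO nuclei (74.1 CPM, 70.1 to 78.4). Hbb-bt, its neighbour on chromosome 7, had 134 UMIs in 111 Cre- nuclei (11.6 CPM) and 274 UMIs in 81 Tet tcKO nuclei (16.5 CPM). More UMIs in fewer nuclei were thus counted for Hbb-bt in the Tet tcKO library, as they were for Hba-a2 and Hba-a1. Of the 274 Hbb-bt UMIs, 179 were in the nucleus with 1154 haemoglobin UMIs.

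Hba-a2 had 267 UMIs in 215 Cre- nuclei (23.2 CPM, 20.5 to 26.2) and 398 UMIs in 164 Tet tcKO nuclei (23.99 CPM, 21.7 to 26.5). Hba-a1 had 128 UMIs in 109 Cre- nuclei (11.1 CPM) and 159 UMIs in 71 Tet tcKO nuclei (9.58 CPM). A tag is counted once per molecule whatever its length, so CPM was not divided by transcript length. The log2 ratios of Tet tcKO over Cre- were 0.26 for Hbb-bs (0.12 to 0.39), 0.50 for Hbb-bt (0.20 to 0.81), 0.05 for Hba-a2 (-0.18 to 0.28) and -0.21 for Hba-a1 (-0.56 to 0.13). None of the 4 was 2-fold apart between the libraries, as against 5.66% of the 11158 genes with 10 CPM or more in either library (355 or 3.18% higher and 277 or 2.48% lower in Tet tcKO, or 276 and 356 after TMM scaling, which shifts all genes by 0.10 on the log2 scale). Without the highest nucleus of each library all 4 ratios were below 0, from -1.18 for Hba-a1 to -0.90 for Hbb-bs.

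The embryonic and theta globin genes were not detected. Hba-x, Hbq1a, Hbq1b, Hbb-y, Hbb-bh1 and Hbb-bh2 had 0 UMIs in both libraries, for which the upper bound of the interval was 0.320 CPM in the Cre- and 0.222 CPM in the Tet tcKO library. Globins with roles outside red cells were present. Cygb, cytoglobin of fibroblast-like and other cells, had 593 Cre- and 740 Tet tcKO UMIs (51.5 and 44.6 CPM). Ngb, neuroglobin of neurons, had 1.74 and 2.59 CPM. Mb, the oxygen store of muscle, had 3 and 7 UMIs.

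The counts were spread in different ways. In the Cre- library 456 nuclei had 1 haemoglobin UMI, 84 had 2, 30 had 3 and 75 had more, up to 20. In the Tet tcKO library 565 nuclei had 1, 71 had 2, 15 had 3 and 15 had more, of which 13 lay between 4 and 11, 1 had 86 and 1 had 1154. The Cre- counts thus thinned out gradually, while the Tet tcKO counts broke off at 11 and left a pair of nuclei far above. Nuclei with 3 or more made up 1.43% of the Cre- nuclei (1.17 to 1.73%) and 0.443% of the Tet tcKO nuclei (0.299 to 0.632%), although the Tet tcKO nuclei were deeper. They held 618 of the 1242 UMIs in Cre- (49.8%) and 1354 of the 2061 in Tet tcKO (65.7%).

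**Figure D1:**
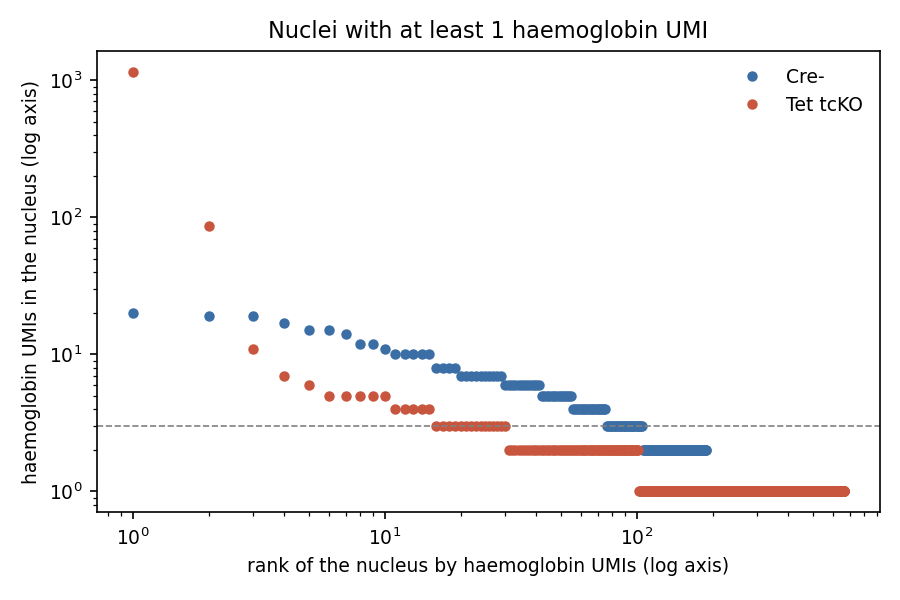
Haemoglobin UMIs of each nucleus with at least 1, ranked from the highest, for the Cre- library (blue) and the Tet tcKO library (red), with both axes on a log scale and a dashed line at 3 UMIs. The Cre- nuclei start at 20 and descend in small steps, whereas the Tet tcKO nuclei start at 1154 and 86 and then drop to 11.

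At least 1 haemoglobin UMI was found in 8.77% of Cre- nuclei (8.13 to 9.44%) and in 9.84% of Tet tcKO nuclei (9.14 to 10.6%). When each nucleus was thinned to 500 UMIs, a depth that all nuclei reached, the shares were 3.96% (3.52 to 4.43%) and 2.29% (1.95 to 2.68%). The order of the libraries thus turned once depth was made equal, but the libraries also differ in their make-up of classes. In Cre- and Tet tcKO the thinned shares were 4.71% and 3.74% in rods and cones, and 1.76% and 0.962% in the other classes. Among rods and cones with under 3 haemoglobin UMIs they were 3.20% (2.75 to 3.71%) and 3.37% (2.77 to 4.06%), which overlap.

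Nuclei just inside and just outside the threshold were mostly photoreceptors in both libraries. All 30 Cre- nuclei with 3 UMIs were rods or cones, as were 73 of the 84 with 2 UMIs, with median totals of 1111.5 and 1438.5 UMIs. In Tet tcKO 14 of 15 nuclei with 3 UMIs and 65 of 71 with 2 UMIs were rods or cones, with median totals of 5237 and 3427 UMIs. Rods and cones made up 5479 of all 7357 Cre- nuclei and 3231 of all 6766 Tet tcKO nuclei. Alpha and beta messages occurred together in 83 of the 105 Cre- carriers and in 17 of the 30 Tet tcKO carriers, and Hbb-bs was present in 101 and 28 of them. Carriers were chosen on the summed counts of these same genes, so these co-occurrences follow in part from the choice and are a description.

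By class, haemoglobin was highest in photoreceptors in both libraries. In Cre-, rods had 150 CPM (141 to 160; 983 UMIs) and cones 129 CPM (108 to 153; 133 UMIs). These intervals overlap. The other Cre- classes lay lower and could not be ordered among themselves: bipolar cells had 35.7 CPM (27.4 to 45.7), ganglion cells 31.7 (22.5 to 43.3), horizontal cells 31.6 (10.3 to 73.7), amacrine cells 26.9 (15.0 to 44.3) and Müller glia 18.0 (4.91 to 46.1).

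In Tet tcKO, cones had 90.8 CPM (84.1 to 97.9; 672 UMIs). Amacrine cells came next at 55.1 CPM, but 86 of their 129 UMIs were in 1 nucleus, and without it they had 18.4 CPM (13.3 to 24.7). Bipolar cells had 19.8 CPM (15.9 to 24.4) and horizontal cells 18.0 (2.18 to 65.1). Ganglion cells had 7.50 CPM (4.29 to 12.2), below the bipolar interval. Müller glia had 0 UMIs among 149231, which allows up to 24.7 CPM. The nucleus with 1154 UMIs was 1 of the 6 annotated as rods, and the other 5 had 0 haemoglobin UMIs among 5696.

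Rods and cones together were 4.60 times the other classes in Cre- (3.82 to 5.58) and 9.63 times in Tet tcKO (8.40 to 11.1). Among nuclei with fewer than 3 haemoglobin UMIs the ratios were 2.27 (1.86 to 2.80) and 5.05 (4.20 to 6.12), so that photoreceptors also led when carriers were left out. Without the pair of high nuclei the Tet tcKO ratio over all nuclei was 5.59 (4.67 to 6.72). In nuclei with under 3 haemoglobin UMIs, rods and cones had 77.7 CPM in Tet tcKO against 68.3 CPM in Cre-, a ratio of 1.14 (1.01 to 1.29), whereas the other classes had 15.4 against 30.05 CPM. Class and quality moved together here: median mitochondrial UMIs were 10.9% in Cre- rods and cones and 5.69% in the other Cre- classes, against 6.99% and 4.36% for the Tet tcKO library, and their part in the result was not tested.

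**Figure D2:**
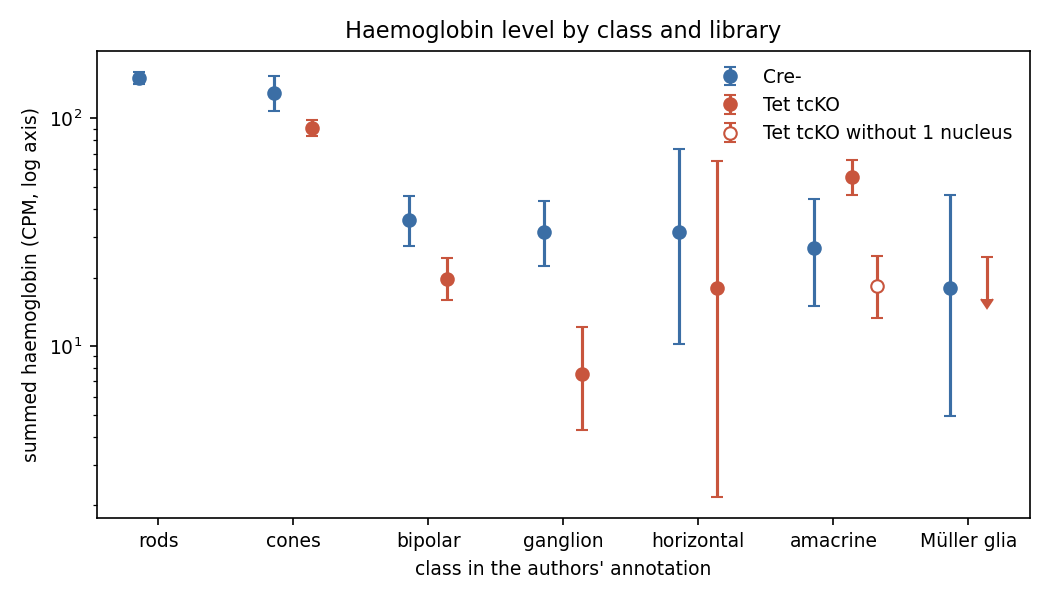
Summed haemoglobin level (CPM, log axis) in each class of the authors' annotation for Cre- (blue) and Tet tcKO (red), with exact Poisson intervals for counting error; the open red point leaves out 1 amacrine nucleus, the arrow is the upper bound for Müller glia at 0 UMIs, and the 6 Tet tcKO rods are not drawn. Photoreceptors lie at 90.8 CPM or more and the other classes at 55.1 CPM or less.

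Shares of nuclei with a UMI followed depth as well as class. Cre- cones, the deepest Cre- class at a median of 3736 UMIs, had haemoglobin in 32.5% of nuclei (26.9 to 38.5%), against 8.65% of rods at a median of 1025.5 UMIs. Thinned to 500 UMIs, the shares were 3.40% (1.56 to 6.35%) in cones and 4.78% (4.21 to 5.39%) in rods. In Tet tcKO the cone share was 16.3% unthinned and 3.72% thinned (3.09 to 4.43%), against 1.09% of thinned bipolar cells (0.648 to 1.72%) and 0.568% of thinned ganglion cells (0.155 to 1.45%). Müller glia gave 2.78% at a median of 1093 UMIs in Cre- and 0% at 1373 UMIs in Tet tcKO.

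The same contrast ran through the authors' clusters. Of the clusters with 50 nuclei or more, 15 Cre- photoreceptor clusters ranged from 41.1 to 2916 CPM and 10 clusters of other classes from 17.2 to 38.9 CPM. In Tet tcKO 8 photoreceptor clusters ranged from 47.7 to 141 CPM and 14 others from 0 to 204 CPM, where the 204 CPM belonged to the amacrine cluster 24 with the nucleus of 86 UMIs. The clusters were built by the authors from these same counts, so these levels are a description.

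Cluster 25 held most of the Cre- carriers. Its 133 Cre- nuclei, annotated as rods, had 443 of the 1242 haemoglobin UMIs (2916 CPM, 2651 to 3201) and 62 of the 105 nuclei with 3 or more. At least 1 haemoglobin UMI was present in 80 of its nuclei (60.2%, 51.3 to 68.5%), and in 51.9% after thinning. Rods outside cluster 25 had 84.5 CPM (77.5 to 91.9). The library outside cluster 25 stood at 70.3 CPM (65.5 to 75.4), against 54.7 CPM in the Tet tcKO library outside the same cluster, where cluster 25 was the single nucleus with 1154 UMIs.

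Rod markers were present in cluster 25, with a summed level of the 5 rod genes of 3147 CPM against 3644 CPM in all Cre- rods. The ratio over the other 7224 nuclei (2943 CPM), 5081 of them annotated as rods, was 1.07 (0.97 to 1.17). Cre- cones had 4590 CPM, and the classes outside rods and cones 640 to 1962 CPM. The rod list thus did not set cluster 25 apart from the rest of the library, which includes the other classes. Its interval in cluster 25 (2871 to 3442 CPM) lay below the level of all Cre- rods. The depth of cluster 25 was ordinary, with a median of 1004 UMIs, and its median mitochondrial share was 12.05%. The 20 endothelial genes summed to 1422 CPM (1239 to 1625), against 376 CPM in the rest of the library. Ptprb, a phosphatase of vessel junctions, had 30 UMIs in 25 of its nuclei (10.4 times the rest of the library, 6.87 to 15.3), and Adgrl4, an adhesion receptor of endothelium, had 21 UMIs (10.3 times, 6.21 to 16.4). Claudin-5 (Cldn5), the tight junction protein of the barrier, had 9 UMIs (8.97 times), and Egfl7, an angiogenic factor, 11 UMIs (12.5 times). Cdh5, the defining cadherin of endothelium, had 0 UMIs, and Pecam1 had 9 (0.95 times). The 14 pericyte and smooth muscle genes summed to 711 CPM against 547 CPM in the rest of the library (1.30 times, 1.06 to 1.57), and their members differed. Abcc9, a pericyte channel subunit, had 8 UMIs (18.7 times, 7.44 to 41.4) and Rgs5 had 6 (6.60 times), while the most abundant members lay close to the rest, with Vtn at 230 against 209 CPM and Ebf1 at 303 in both. Acta2, Myh11, Tagln, Atp13a5, Higd1b and Anpep had 0 UMIs in the cluster. On few counts, platelet genes had 9 UMIs (2.67 times, 1.21 to 5.15) and microglia and leucocyte genes 8 UMIs (2.45 times, 1.05 to 4.91). Of the platelet UMIs 8 were of Gp1bb, which also had 210 UMIs outside the cluster. Pf4, Ppbp, Gp9 and Tubb1 had 0 in the cluster. The label rods and the vessel genes were thus found in the same set of barcodes, and whether single nuclei or mixed barcodes account for this was not tested.

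Vessel genes accompanied haemoglobin in the Cre- carriers. In the 105 nuclei the endothelial list had 194 UMIs and 1115 CPM (963 to 1283), against 378 CPM in the other 7252 nuclei, a ratio of 2.95 (2.54 to 3.40). A UMI of the list was present in 83 of the 105 (79.0%) and in 2668 of the other 7252 (36.8%), at median depths of 1115 and 1107 UMIs. Of the 15 endothelial genes with 50 UMIs or more in the library, 11 were 2-fold or more higher in carriers, against 6.06% of the 12917 genes tested, and their median ratio was 5.01 against 0.96 over all genes tested.

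Several of these genes belong to the barrier. Slco1a4, an organic anion carrier of barrier endothelium, had 12 UMIs in carriers (8.14 times, 4.07 to 14.9). Slc2a1, the glucose carrier that endothelium shares with photoreceptors and glia, had 18 UMIs (1.98 times, 1.16 to 3.15). Mfsd2a, a lipid carrier that restrains transcytosis, had 3 UMIs and Abcb1a, the efflux pump, 5.

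Others mark vessel signalling. Ptprb had 27 UMIs in 22 carriers (8.07 times, 5.20 to 12.1) and Adgrl4 20 UMIs in 18 (8.51 times, 5.06 to 13.6). Egfl7 had 11 UMIs (10.9 times, 5.17 to 20.7), and endoglin (Eng), a co-receptor of the TGF-beta family, 7 UMIs (7.47 times). Flt1, a VEGF receptor, was the most abundant at 42 UMIs in 30 carriers, but at 1.97 times (1.41 to 2.67), since it was also counted at 123 CPM outside carriers. Pecam1, an adhesion molecule of endothelium, stood level at 63.2 and 62.2 CPM. Cdh5 and the endothelial factor Erg had 0 UMIs in carriers.

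**Figure D3:**
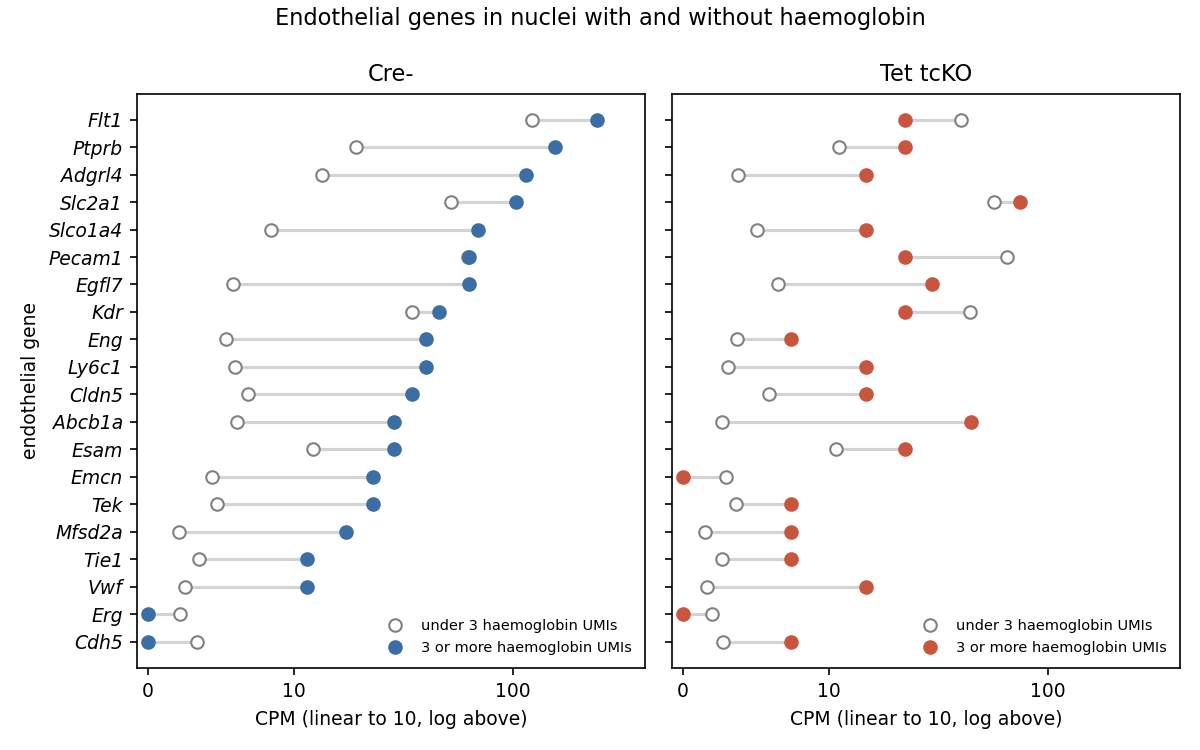
Level of the 20 endothelial genes (CPM, linear up to 10 and log above) in nuclei with 3 or more haemoglobin UMIs (filled) and with fewer (open), for Cre- (left, 105 carriers) and Tet tcKO (right, 30 carriers). In Cre- 18 of the 20 filled points lie above the open ones and Cdh5 and Erg lie at 0, while in Tet tcKO most filled points rest on 1 to 4 UMIs.

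In the Tet tcKO carriers the vessel signal was weaker. The endothelial list had 50 UMIs and 372 CPM in the 30 nuclei (276 to 490), against 276 CPM in the others, a ratio of 1.35 (0.998 to 1.78). Of 14 endothelial genes with 50 UMIs or more, 10 were 2-fold or more higher, against 10.3% of the 14128 genes tested, with a median ratio of 2.06 against 0.99. Each of these rested on few counts. Abcb1a had 6 UMIs in 5 carriers (16.7 times, 5.81 to 39.3), Egfl7 had 4 (4.53 times, 1.21 to 11.9), and Flt1 had 3 (0.56 times, 0.11 to 1.63).

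Most Tet tcKO carriers were cones, and the endothelial level was also higher over all rods and cones (370 CPM) than over the other classes (202 CPM). Within cones the list stood at 396 CPM in 26 carriers and 369 CPM in the others, a ratio of 1.07 (0.79 to 1.42). Within Cre- rods the same comparison gave 1256 against 389 CPM, a ratio of 3.23 (2.73 to 3.79). The Cre- excess was partly that of cluster 25: outside it 43 carriers had 742 CPM against 373, a ratio of 1.99 (1.55 to 2.53). Within cluster 25 carriers had 1542 CPM and the other 71 nuclei 1285 CPM, a ratio of 1.20 (0.91 to 1.59).

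Pericyte and smooth muscle genes did not stand apart as a list. They summed to 626 CPM in Cre- carriers against 548 (ratio 1.14, 0.94 to 1.38) and to 275 against 353 in Tet tcKO (0.78, 0.55 to 1.08). Of the genes with 50 UMIs or more, 2 of 4 were 2-fold or more higher in Cre- carriers, against 6.06% of all genes tested, and 1 of 6 in Tet tcKO carriers, against 10.3%. Abcc9 had 4 UMIs in Cre- carriers (7.24 times, 1.87 to 20.2) and Rgs5 had 4 (3.72 times, 0.987 to 9.96). The most abundant of the list were Vtn, vitronectin of the extracellular matrix, at 49 UMIs (1.35 times), and Ebf1, a transcription factor that neurons share, at 44 UMIs (0.83 times).

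As a sum, red cell genes did not differ between carriers and other nuclei beyond the counting error. The 27 erythroid genes summed to 437 CPM in Cre- carriers against 427 (ratio 1.02, 0.80 to 1.28) and to 565 against 461 in Tet tcKO (1.22, 0.96 to 1.53). With 50 UMIs or more, 0 of 10 genes were 2-fold or more higher in Cre- carriers (median ratio 0.99), against 6.06% of all genes tested, and 3 of 11 in Tet tcKO carriers (median ratio 1.45), against 10.3%. Much of this list is Ank1 and Sptb, cytoskeletal genes that neurons express. Of the genes best known from red cells, Slc4a1, the anion exchanger, Klf1 and Gata1, the erythroid factors, and Epb42, of the membrane skeleton, had 0 UMIs in carriers of both libraries. Alas2, which starts haem synthesis in red cells, had 1 UMI in Cre- carriers and 7 UMIs in 3 Tet tcKO carriers (17.5 times, 6.68 to 38.8), 4 of them in the nucleus with 1154 haemoglobin UMIs.

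Genes of haem synthesis and turnover, many of them used by every cell, summed to 666 CPM in Cre- carriers against 532 (ratio 1.25, 1.03 to 1.50) and to 736 against 460 in Tet tcKO (1.60, 1.30 to 1.95). In Cre- 4 of the 13 genes with 50 UMIs or more were 2-fold or more higher, against 6.06% of all genes tested, and in Tet tcKO 4 of 15, against 10.3%. The ferritin genes gave most of the counts. Fth1 had 40 UMIs in Cre- carriers (1.22 times) and 27 in Tet tcKO carriers (1.71 times, 1.12 to 2.49), and Ftl1 had 16 (1.08 times) and 15 (2.35 times, 1.31 to 3.90). Within Cre- rods the list stood at 660 CPM in carriers against 631 CPM, a ratio of 1.05 (0.83 to 1.30). Within Tet tcKO cones the list ratio was 1.23 (0.99 to 1.51).

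Genes of other blood cells had few counts. Platelet genes had 7 UMIs in Cre- carriers (1.80 times the other nuclei, 0.714 to 3.75) and 2 in Tet tcKO carriers (0.90 times, 0.108 to 3.28), with Pf4 and Ppbp at 0 in both libraries. Microglia and leucocyte genes had 7 UMIs (1.86 times, 0.740 to 3.89) and 3 UMIs (0.74 times, 0.153 to 2.19). The rod list stood at 3338 CPM in Cre- carriers against 2940 CPM in the other nuclei of all classes. In Tet tcKO the cone list stood at 3814 against 2445 CPM. The carriers were mostly photoreceptors by annotation. Within Cre- rods the rod list was lower in carriers, at 3246 against 3651 CPM (ratio 0.89, 0.80 to 0.98).

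Over all 32227 genes, the 10 with the highest ratio in Cre- carriers, among genes with a UMI in at least 3 of them, were C130074G19Rik, Lmcd1, Mal, Gm15829, Sox17, Mmrn2, Slfn5, Isg20, Ctla2a and 4930562C15Rik. Sox17 is a transcription factor of arterial endothelium and Mmrn2 a matrix protein of endothelial cells. Sox17 had 7 UMIs in 7 carriers (17.5 times, 6.43 to 41.5) and Ctla2a had 12 in 12 (14.5 times, 7.05 to 27.4). The other 8 had 3 to 5 UMIs. In Tet tcKO they were Alas2, Ets1, Abcb1a, Lgals1, U90926, Nid2, Cabp2, Gm45609, Gm47232 and Hspg2, with 3 to 7 UMIs each. Ets1, a factor of endothelium and lymphocytes, had 6 UMIs in 5 carriers (17.5 times, 6.07 to 41.3). Nid2 and Hspg2 encode basement membrane proteins. Abcb1a alone of these 20 genes was on the endothelial list, while Isg20 and Alas2 were on the erythroid list.

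The relation was also read the other way, from endothelial to haemoglobin UMIs. Cre- nuclei with 0 endothelial UMIs had 70.6 CPM of haemoglobin, those with 1 had 107 CPM, those with 2 had 203 CPM and those with 3 or more had 201 CPM (176 to 228). Outside cluster 25 these levels were 62.7, 70.1, 81.2 and 99.6 CPM. In Tet tcKO, leaving out the nuclei with 86 and 1154 UMIs, they were 38.0, 47.6, 64.2 and 94.3 CPM (80.1 to 110). Nuclei with more endothelial UMIs were deeper, with medians of 1027.5 UMIs at 0 and 3153.5 at 3 or more endothelial UMIs for Cre-, and of 1624.5 and 3874 for Tet tcKO. After thinning haemoglobin to 500 UMIs per nucleus, the share with a UMI was 3.02% at 0 and 3.95% at 3 or more endothelial UMIs in Cre- outside cluster 25 (2.06 to 6.79% at 3 or more), and 1.84% and 5.25% in Tet tcKO without the pair (3.24 to 7.99% at 3 or more).

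High endothelial levels were also found where few or 0 haemoglobin UMIs were counted. Müller glia had the highest endothelial level of the named classes, with 905 CPM in the Cre- cluster 14 at 17.2 CPM of haemoglobin. The Tet tcKO Müller cluster 37 had 746 CPM and 0 haemoglobin UMIs among 81734, which allows up to 45.1 CPM. Cluster 30, also Müller glia with 43 Cre- and 46 Tet tcKO nuclei, had 1751 and 919 CPM and 0 haemoglobin UMIs in both libraries. Those zeros allow up to 84.98 CPM for Cre- and 54.7 CPM for Tet tcKO, above the levels of the other classes, so that a lower haemoglobin level in these clusters was not detectable at this depth.

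**Figure D4:**
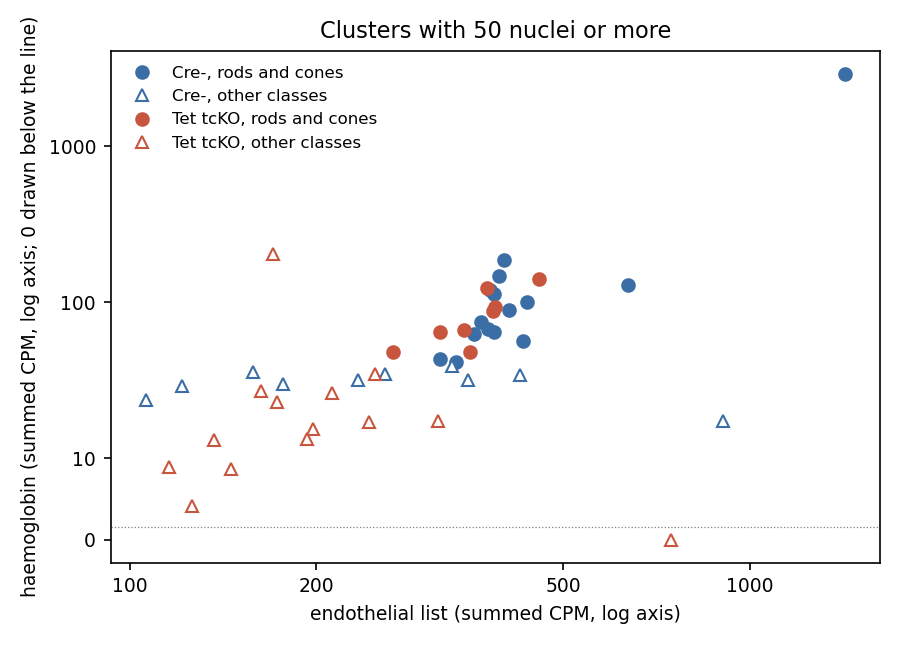
Haemoglobin against endothelial level (summed CPM, log axes) for the 47 clusters with 50 nuclei or more, with rods and cones as circles, other classes as triangles, Cre- in blue and Tet tcKO in red; a level of 0 is drawn below the dotted line. The Cre- cluster 25 lies alone at 1422 and 2916 CPM, and the Müller clusters lie at 746 and 905 CPM of endothelial genes with 0 and 17.2 CPM of haemoglobin.

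The pair of Tet tcKO nuclei far above the rest differed from the Cre- carriers. In the highest, annotated as rod in cluster 25, 1154 of 1744 UMIs were haemoglobin (66.2%): 79 of Hba-a1, 208 of Hba-a2, 688 of Hbb-bs and 179 of Hbb-bt. It had UMIs of 452 genes, 0 of the rod list, 0 of the endothelial list and 9 of the erythroid list. Those 9 were 4 of Alas2, 2 of Bnip3l, which directs loss of mitochondria in maturing red cells, and 1 each of Tent5c, Aqp1 and Ube2l6. Cdh23 was its leading other gene at 44 UMIs, but Cdh23 had a UMI in every nucleus of both libraries and so does not set it apart. Its mitochondrial share was 3.50%.

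The next nucleus, annotated as amacrine in cluster 24, had 86 haemoglobin UMIs of 1572 (5.47%), with 10, 21, 42 and 13 for Hba-a1, Hba-a2, Hbb-bs and Hbb-bt. It had UMIs of 1057 genes, 0 of the endothelial, erythroid and amacrine lists and 1 of the haem list. In Cre-, the highest nucleus had 20 haemoglobin UMIs of 2589 (0.772%), and 3 of its 5 highest nuclei were in cluster 25 and 2 in cluster 32. Those 5 had 0 to 2 endothelial UMIs each, although the carriers as a set were rich in them.

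The 4 genes kept similar shares across most sets of nuclei. Hbb-bs gave 57.4% of haemoglobin UMIs in Cre- and 59.7% in Tet tcKO. Alpha genes gave 31.8% (29.2 to 34.5%) of the Cre- and 27.0% (25.1 to 29.0%) of the Tet tcKO haemoglobin. Hba-a2 gave 67.6% (62.7 to 72.2%) and 71.5% (67.5 to 75.2%) of the alpha UMIs, and Hbb-bs 84.2% (81.5 to 86.6%) and 81.8% (79.7 to 83.7%) of the beta UMIs.

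Some sets departed from these shares. In the other classes of Tet tcKO with under 3 haemoglobin UMIs the alpha share was 45.4% (37.0 to 54.0%), against 26.7% (23.1 to 30.5%) in rods and cones with under 3. In Cre- the same sets had 39.8% (30.9 to 49.3%) and 34.6% (30.4 to 38.9%), which overlap. In the highest nucleus alpha gave 24.9% (22.4 to 27.5%) and Hbb-bs gave 79.4% (76.5 to 82.0%) of beta, below the 86.0% (82.6 to 88.9%) in Tet tcKO nuclei with under 3 haemoglobin UMIs. Cluster 25 in Cre- had 29.1% alpha (24.9 to 33.6%). UMIs of 1 nucleus share their source, so that these intervals are too narrow as statements about cells.

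**Figure D5:**
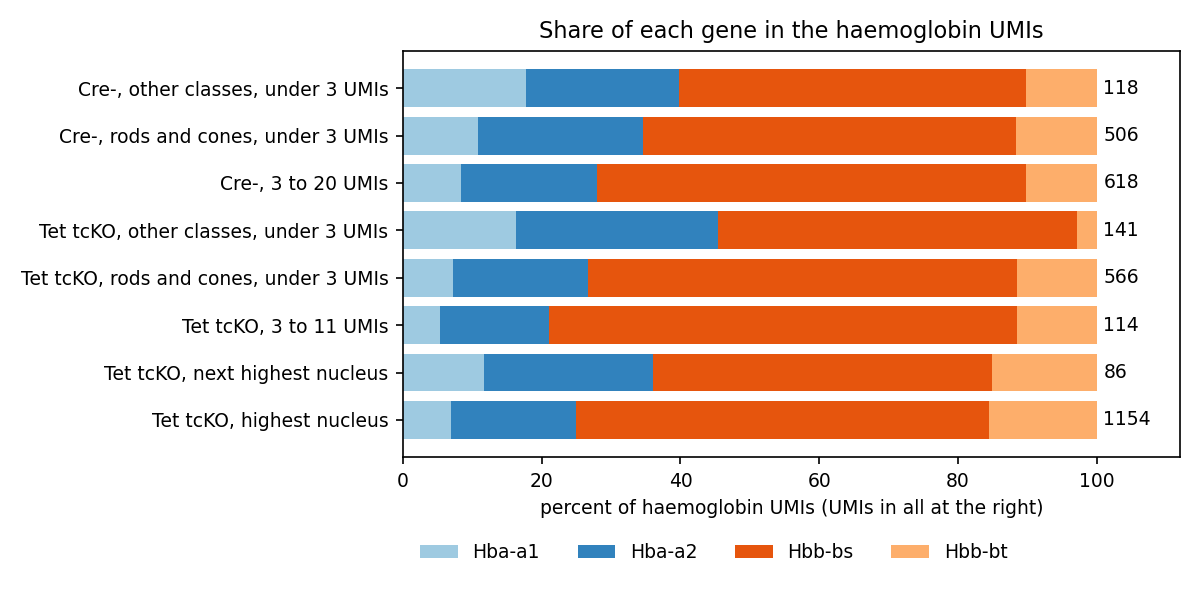
Percent of haemoglobin UMIs from Hba-a1, Hba-a2 (blues), Hbb-bs and Hbb-bt (oranges) in sets of nuclei named at the left, with the number of UMIs at the right of each bar. Hbb-bs takes the largest share in each bar, and the alpha share is largest at 45.4% in the other classes of Tet tcKO with under 3 UMIs.

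Across the 12 populations formed by a class with 50 nuclei or more in a library, 7 of Cre- and 5 of Tet tcKO, the gene closest to summed haemoglobin was Rbm42, an RNA-binding protein (Pearson r = 0.95 on log2 of CPM plus 1). Sympk, a scaffold of 3′ end processing, Gm10076, Gadd45gip1 and Spag7 followed at 0.94, 0.94, 0.94 and 0.93 among 13505 genes compared. The 12 points share 2 libraries and differ in depth, so these are descriptions. Among the lists the 5 rod genes had a median r of 0.59, the bipolar genes 0.40 and the amacrine genes 0.33. The 13 endothelial genes had 0.32, the haem genes 0.31 and the 10 erythroid genes 0.12, against 0.11 over all genes compared. The 6 cone genes, at -0.009, and the Müller glia genes, at -0.21, lay below that level.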

How the data were processed

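Nuclei of whole retinas were captured with a 3′ PIPseq kit. Per the labels, reads were processed with pipseeker against GRCm39. The authors then removed ambient RNA with CellBender and filtered nuclei on transcripts and mitochondrial content in Monocle3, and deposited whole UMI counts per gene and nucleus. That removal can take away true haemoglobin molecules and leave free ones. The percent of mitochondrial UMIs per nucleus is the authors' own value. The authors' size factors, a ratio of each nucleus's total to a constant, were not used, nor was the mean signal per genotype in the deposited gene table. The treatment of doublets and of reads matching several genes is not given in the labels or methods used here, and no doublet caller was run.

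UMIs were summed over nuclei and divided by all UMIs of those nuclei, as counts per 1000000 (CPM), with Python 3.11.15, numpy 2.4.6 and scipy 1.17.1. Levels have exact Poisson intervals, shares Clopper-Pearson intervals and ratios conditional binomial intervals, all at 95%, and a 0 in a denominator was set to 3 counts. With 1 library per genotype no test was made. The genes, lists and threshold of 3 UMIs were chosen with earlier results of these data known. Named genes were the 4 haemoglobin genes, genes of the lists, the 10 leading genes of carriers in each library and the 5 genes most like summed haemoglobin. Fold counts used genes with 50 UMIs or more in a library, or 10 CPM or more in either library. Intervals and ratios were tested on simulated data. Alternatives were other thresholds and filters, counting a gene once per nucleus, scaling by TMM (edgeR 4.0.16) or by the median of ratios, and leaving out nuclei. Coding sequences were read from GENCODE vM39 transcripts.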

Additional observations from a re-analysis of the deposited data

Results flagged for a closer look

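The deposited gene table gives, for each gene, the number of nuclei in which it was found, and this exceeded the number in both matrices together. The excess was 42 nuclei for Hba-a1 (222 against 180), 50 for Hba-a2 (429 against 379), 69 for Hbb-bs (897 against 828) and 37 for Hbb-bt (229 against 192). Those further nuclei were not analysed here. Over the 13574 genes found in 100 nuclei or more, the table's number was 1.15 times that of the matrices at the median, against 1.23, 1.13, 1.08 and 1.19 times for the 4 genes in the same order.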

How the results depend on the processing

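The log2 ratio of Tet tcKO over Cre- for summed haemoglobin, 0.20 as reported, took the opposite sign when a gene scored at most once in a nucleus (-0.69), without the highest nucleus of each library (-0.96) and without nuclei of 3 or more haemoglobin UMIs (-0.36). It was 0.10 with TMM and 0.10 with median-of-ratios scaling, which shift all genes by 0.10 and 0.11, 0.37 in nuclei of 1000 UMIs or more and 0.89 in nuclei under 10% mitochondrial UMIs. With alternatives chosen after seeing the data it was -1.12 without nuclei over 50 haemoglobin UMIs and -0.36 without cluster 25. In the order once per nucleus, without the highest nucleus, without nuclei over 50 UMIs and without cluster 25, Hba-a1 gave -1.15, -1.18, -1.40 and -0.62, Hba-a2 -0.92, -1.02, -1.19 and -0.48, Hbb-bs -0.43, -0.90, -1.04 and -0.26, and Hbb-bt -0.98, -0.97, -1.24 and -0.44. Hbb-bt was 0.89 in nuclei of 1000 UMIs or more.

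The log2 ratio of rods and cones over other classes stayed above 0 under every alternative run. In Cre- it was 2.20, 1.64 with genes counted once per nucleus and 1.50 without cluster 25. In Tet tcKO it was 3.27, 2.32 once per nucleus, 1.83 without the highest nucleus, 1.83 without cluster 25 and 2.48 without nuclei over 50 haemoglobin UMIs. The share of carriers was 2.57% in Cre- and 1.49% in Tet tcKO at 2 UMIs or more, 0.748% and 0.148% at 5 or more, and 0.595% in Cre- without cluster 25. The share with any haemoglobin UMI was 3.96% and 2.29% after thinning.

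The log2 ratio of the endothelial list in Cre- carriers, 1.56 as reported, was 1.13 at 2 UMIs or more and 0.99 without cluster 25. In Tet tcKO the pericyte list was at 0.48 and the erythroid list at 0.68 at 5 UMIs or more, and the pericyte list at 0.17 once per nucleus, against -0.36 and 0.29 as reported. Genes 2-fold apart between the libraries were 632 (355 higher and 277 lower in Tet tcKO), with 276 higher and 356 lower under TMM, and 1868 with a filter of 1 CPM. Of the 90 values under alternatives, 45 stayed within the counting interval of the reported value or, for counts of genes, near the reported count, and 13 took the opposite sign. No paired analysis was possible because each genotype had 1 library. The causes were not tested. Depth limits the rarer classes, with 111025 UMIs for Tet tcKO horizontal cells, 149231 for Müller glia and 7440 for the 6 rods.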
